A study of Mus musculus with 282 samples.

Results

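The glucocorticoid receptor gene Nr3c1 and 6 genes known as targets of steroid receptors (Tsc22d3, Fkbp5, Zbtb16, Klf9, Per1 and Sgk1) were examined in sorted basal prostate stem cells of male POET3 mice. These 7 genes were listed by name, and all 7 were found among the 48440 gene rows of both deposited count tables and passed the filter on low counts. The groups were inflamed cells of batch 2 (80 of 85 cells kept), inflamed cells of batch 3 (76 of 78), naive cells of batch 2 (53 of 55) and naive cells of batch 3 (59 of 64). All cells came from prostates of POET3 mice, a transgenic strain that makes ovalbumin in the prostate. The age of the mice, their number, the promoter of the transgene and the way inflammation was brought about are not stated in these sources. Tissue was digested with collagenase and trypsin, and viable cells were sorted by staining of Sca-1, CD49f, CD31 and CD45; the gates are not stated. Capture was on the C1 system of Fluidigm, and libraries were sequenced without molecular identifiers, so counts are of reads, not of molecules.

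The glucocorticoid receptor waits in the cytoplasm in a complex with Hsp90 and co-chaperones, among them the product of Fkbp5, and moves to the nucleus when it binds corticosterone. There it binds palindromic DNA elements that other steroid receptors can also bind, which is why glucocorticoids and androgens can switch on an overlapping set of genes. In epithelia these targets curb inflammation, feed back on the receptor, set the clock and control salt transport. The study's title concerns the effect of inflammation on androgen signalling in these cells, and genes that respond to both hormones bear on that question.

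RefSeq promoter windows (GRCm38.p6, 250 bases before to 50 bases after a start site) were available for 5 of the 7 genes, with 6 windows for Sgk1, 3 for Tsc22d3, 2 for Per1 and 1 each for Fkbp5 and Klf9. They were searched on both strands for the full receptor palindrome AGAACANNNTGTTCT, for a single arm of it (AGAACA, which every full palindrome also holds) and for the E-box CACGTG bound by clock factors. The full palindrome occurred in 1 of the 13 windows, and in 3 of all 32851 windows (0.00913%). A single arm occurred in 4 of the 13 windows and in 18.97% of all windows, and the E-box in 3 of the 13 and in 7.15% of all. Below are shown the Sgk1 window with the full palindrome, since Sgk1 is the target that was higher in inflamed cells, and the E-boxes of Per1 and Fkbp5, which were lower. Each is written 5′ to 3′ on the strand of the gene, with capitals marking the palindrome in Sgk1 and the E-box in Per1 and Fkbp5.
Sgk1, chr10:21993640-21993889, plus strand: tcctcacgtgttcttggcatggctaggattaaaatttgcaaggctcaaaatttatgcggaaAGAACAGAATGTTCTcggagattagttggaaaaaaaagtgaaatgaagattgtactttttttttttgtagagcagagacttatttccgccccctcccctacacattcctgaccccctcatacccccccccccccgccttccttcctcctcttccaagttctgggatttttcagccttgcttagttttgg
Per1, chr11:69098726-69098845, plus strand: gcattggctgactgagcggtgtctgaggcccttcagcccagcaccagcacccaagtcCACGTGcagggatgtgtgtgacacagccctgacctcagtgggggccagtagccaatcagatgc
Fkbp5, chr17:28486256-28486375, minus strand: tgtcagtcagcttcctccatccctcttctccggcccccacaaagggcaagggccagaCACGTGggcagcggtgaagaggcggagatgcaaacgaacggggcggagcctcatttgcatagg
The Sgk1 palindrome starts at base -189 counted from the start site, and the E-boxes at -166 in Per1 and -169 in Fkbp5. The same Sgk1 window also held an E-box at -246 and a further arm at -242. No full palindrome was found in the windows of Tsc22d3, Fkbp5, Klf9 or Per1, which says only that these letters are not in these stretches.

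Kept cells had at least 1000 detected genes and 50000 counts. Their median depth was 1001872 and 998864.5 counts in inflamed batches 2 and 3, against 971069 and 840863 in naive batches 2 and 3, and they held a median of 4683 and 4108.5 against 4739 and 3432 detected genes. Cells are not replicates, so kept cells were added up by condition and batch, and the resulting 4 sums (50105953 to 79225330 counts) were compared in CPM, counts per 1000000 counts of the scaled sum. Nothing in the labels says that the batches are separate sets of mice, so the p-values measure only how far the difference between conditions varied between these sums, which may be technical. In summed cells, fewer cells with a transcript and less RNA per cell give the same value, so shares of cells are given beside the levels. All 10 basal markers were measured in every sum, at a summed level of 13819 and 13856 CPM in inflamed sums and 8180 and 10002 CPM in naive sums. Most of that gap was Krt17, at 6864 and 5813 CPM in inflamed sums against 1668 and 3704 CPM in naive sums. By direction, 5 of the 10 were higher in inflamed cells in both batches, namely Krt17, Krt15, Itga6, Col17a1 and Aqp3. The 2 that were lower in both batches were Krt5 (139.3 and 169.9 CPM against 339 and 198.6 CPM) and Trp63 (83.01 and 294 CPM against 269 and 344.5 CPM). The other 3 differed in direction between the batches. Luminal markers summed to 2081 and 1832 CPM in inflamed sums against 1640 and 2187 CPM in naive sums. Stromal markers summed to 3418 and 4518 CPM against 4045 and 4511 CPM, of which Dcn alone made up 3377 and 4397 CPM against 3933 and 4369 CPM. The part of these markers in the results below was not tested. Of 16 leukocyte markers, 13 had 0 reads in all 4 sums, where 3 counts would be 0.0379 to 0.0599 CPM of the unscaled sums, and the whole list came to at most 0.0254 CPM in any sum.

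The transcripts of Nr3c1, Tsc22d3, Fkbp5, Zbtb16 and Per1 were lower in inflamed cells in both batches, Klf9 went both ways and Sgk1 was higher. Some of these differences were small in batch 3, at 1.11-fold for Nr3c1 and 1.37-fold for Fkbp5 and for Sgk1. Both inflamed sums lay below both naive sums for 5 of the 7 genes (Nr3c1, Tsc22d3, Fkbp5, Zbtb16 and Per1), against 21.3% of all 14713 genes tested. Both inflamed sums lay above both naive sums for 1 of the 7 (Sgk1), against 24.3% of all genes. A difference of 2-fold or more downward in both batches was reached by 2 of the 7 (Tsc22d3 and Zbtb16), against 10.6% of all genes. None of the 7 passed edgeR's quasi-likelihood test after Benjamini-Hochberg adjustment over all genes, and neither did any other gene (0 of 14713, or 0%, with unadjusted p below 0.05 for 742 higher and 475 lower genes, or 5.04% and 3.23%), whereas DESeq2 called 927 higher and 534 lower. All values below therefore describe differences that missed the threshold in the main test.

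**Figure D1:**
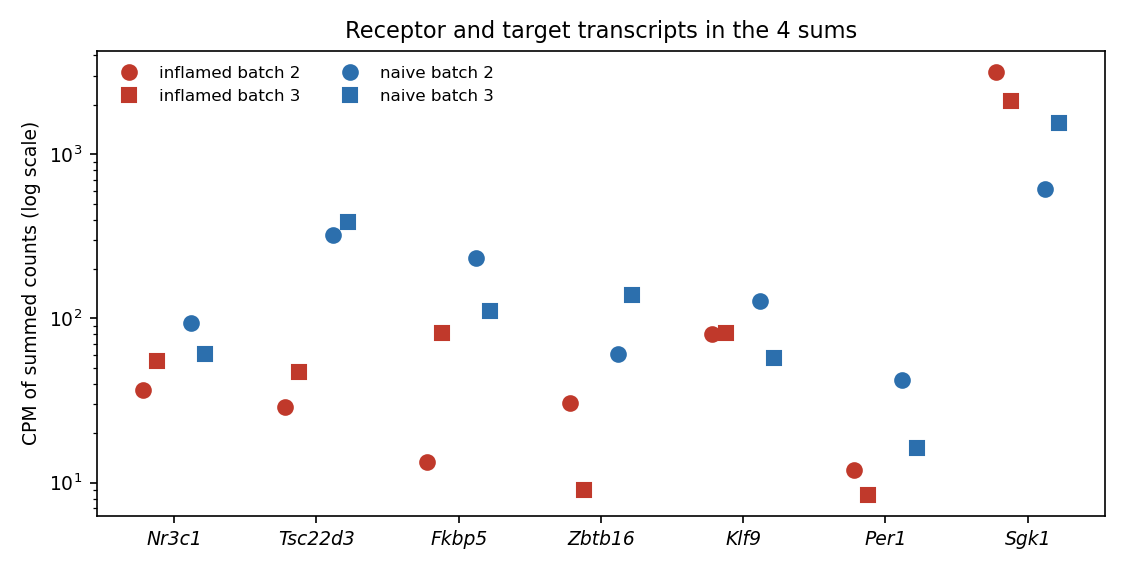
Level in CPM (log axis) of Nr3c1 and its 6 targets in each of the 4 sums, with circles for batch 2 and squares for batch 3. The 2 inflamed sums of Tsc22d3, at 28.9 and 47.1 CPM, lie furthest from the naive sums at 324 and 384 CPM, and Sgk1 is the only one of the 7 whose inflamed sums are both above.

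Nr3c1 encodes the glucocorticoid receptor itself (ENSMUSG00000024431; GRCm38 chromosome 18, 39410545 to 39519421, minus strand). It stood at 36.5 and 55.1 CPM in inflamed batches 2 and 3, against 93.3 and 61.2 CPM in naive batches 2 and 3. The inflamed sums were the lower ones, but the gap was narrow in batch 3: 2.56-fold in batch 2 and 1.11-fold in batch 3. The fitted log2 ratio of inflamed over naive was -0.75 ± 0.63 (SE, n = 2 and 2 sums; edgeR adjusted p = 0.829). A read of Nr3c1 was found in 60% (95% Clopper-Pearson interval 48.4 to 70.8) and 39.5% (28.4 to 51.4) of inflamed cells, against 77.4% (63.8 to 87.7) and 45.8% (32.7 to 59.2) of naive cells. With at least 5 reads required, the shares were 23.8% and 26.3% of inflamed cells and 43.4% and 23.7% of naive cells, so that the order held in batch 2 only. Such intervals cover counting error only. The reads came from few cells: the 5 highest cells gave 84.1% and 66.6% of the inflamed reads and 77.4% and 67.3% of the naive reads.

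Per kilobase of exon, Nr3c1 stood at 4.74 and 7.17 CPM per kb in inflamed sums and 12.1 and 7.96 CPM per kb in naive sums. The mineralocorticoid receptor Nr3c2, which binds the same hormones and DNA element, reached 2.75 CPM per kb in naive batch 3 and at most 0.0666 CPM per kb in the other 3 sums. The progesterone receptor Pgr reached 0.301 CPM per kb at most.

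Tsc22d3 encodes GILZ, a leucine zipper protein through which glucocorticoids restrain NF-kB and AP-1 (ENSMUSG00000031431; chromosome X, 140539528 to 140600659, minus strand). By the fitted ratio it showed the largest difference of the 7, although Fkbp5 differed more in batch 2 and Zbtb16 in batch 3. It stood at 28.9 and 47.1 CPM in inflamed sums against 324 and 384 CPM in naive sums. The inflamed sums were 11.2-fold (batch 2) and 8.15-fold (batch 3) below the naive ones (fitted log2 ratio -3.26 ± 0.39 SE, n = 2 and 2 sums; edgeR adjusted p = 0.568, DESeq2 adjusted p = 8.71e-08). Reads were found in 36.2% (25.8 to 47.8) and 30.3% (20.2 to 41.9) of inflamed cells, against 90.6% (79.3 to 96.9) and 69.5% (56.1 to 80.8) of naive cells. With at least 5 reads the shares were 13.8% and 21.1% against 71.7% and 35.6%. Cells over 100 CPM numbered 4 of 80 and 10 of 76 among inflamed cells and 22 of 53 and 13 of 59 among naive cells. The highest cell reached 720 and 561 CPM in inflamed batches and 2508 and 4324 CPM in naive batches, so the share of cells and the highest level were lower in inflamed cells. Among cells with a read, the median was 3.13 and 33.5 CPM in inflamed batches and 72.8 and 7.81 CPM in naive batches, which is lower in inflamed cells in batch 2 and higher in batch 3.

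The nearest relatives of Tsc22d3 did not share one direction. Tsc22d2 was lower in both batches, at 444 and 377 CPM in inflamed sums against 962 and 1385 CPM in naive sums. Tsc22d1 was higher, at 353 and 449 CPM against 220 and 185.4 CPM. Tsc22d4 differed between the batches and stood at 2.23 CPM per kb of exon or less in every sum.

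Fkbp5 encodes FKBP51, the immunophilin that joins the receptor complex and lowers its affinity for hormone, a negative feedback loop (ENSMUSG00000024222; chromosome 17, 28399094 to 28517527, minus strand). It had 13.4 and 81.4 CPM in inflamed sums against 233 and 111.5 CPM in naive sums. It was lower by 17.3-fold in batch 2 but by 1.37-fold in batch 3, so the size of the difference rested on batch 2 (fitted log2 ratio -2.29 ± 1.23 SE, n = 2 and 2 sums; edgeR adjusted p = 0.687, DESeq2 adjusted p = 0.0375). The share of cells with a read was 27.5% (18.1 to 38.6) and 32.9% (22.5 to 44.6) in inflamed batches, against 83.02% (70.2 to 91.9) and 59.3% (45.7 to 71.9) in naive batches. At 5 reads or more the batch 3 shares came to 22.4% in inflamed and 23.7% in naive cells, while those of batch 2 were 13.8% and 41.5%. In naive batch 3 the 5 highest cells gave 95.4% of the reads and the median cell with a read had 2.91 CPM. Fkbp4, the co-chaperone that promotes receptor transport, had 47.98 and 108.3 CPM in inflamed sums against 198.4 and 109.7 CPM in naive sums, again with the difference in batch 2.

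Zbtb16 encodes PLZF, a zinc finger repressor that marks progenitor cells and is known as a strong target of both hormones (ENSMUSG00000066687; chromosome 9, 48654297 to 48836222, minus strand). Its sums were 30.4 and 9.01 CPM in inflamed cells and 60.99 and 139.1 CPM in naive cells. Here the difference was larger in batch 3, at 15.4-fold lower, than in batch 2, at 2.00-fold lower (fitted log2 ratio -2.47 ± 1.07 SE, n = 2 and 2 sums; edgeR adjusted p = 0.614, DESeq2 adjusted p = 0.027). The shares of cells were lower in both batches, with reads in 27.5% (18.1 to 38.6) and 21.1% (12.5 to 31.9) of inflamed cells and 75.5% (61.7 to 86.2) and 49.2% (35.9 to 62.5) of naive cells. With 5 reads required they were 13.8% and 11.8% against 37.7% and 23.7%. The top cell held 43.1% and 34.9% of the inflamed reads and 31.2% and 32.1% of the naive reads, and the 5 highest cells held 96.1% and 88.6% of the inflamed and 78.8% and 91.7% of the naive reads. Among its relatives by function, the repressor Bcl6 was higher, at 71.1 and 41.3 CPM in inflamed sums against 21.8 and 8.99 CPM in naive sums, and the corepressor gene Ncor1 had 113.4 and 111.5 CPM against 116.1 and 249.6 CPM.

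Per1 encodes a period protein of the circadian clock and responds quickly to glucocorticoids (ENSMUSG00000020893; chromosome 11, 69095217 to 69109960, plus strand). Its reads were few, and it stood at 11.9 and 8.47 CPM in inflamed sums against 42.2 and 16.3 CPM in naive sums. The inflamed sums were lower by 3.54-fold in batch 2 and by 1.92-fold in batch 3 (fitted log2 ratio -1.38 ± 1.02 SE, n = 2 and 2 sums; edgeR adjusted p = 0.794). A read was present in 25% (15.99 to 35.9) and 25% (15.8 to 36.3) of inflamed cells, against 60.4% (46.004 to 73.5) and 52.5% (39.1 to 65.7) of naive cells. With 5 reads the shares were 17.5% and 15.8% against 33.96% and 25.4%. In inflamed batch 2, 1 cell gave 47.6% of the Per1 reads and reached 852 CPM, above the highest naive cell at 350 CPM.

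Other clock genes did not follow Per1 as a group. Of the clock list, 19 genes with Per1 were tested: 5 lower and 6 higher in each batch, with 1 in each direction at an unadjusted p under 0.05. Among all genes tested, 28.3% were lower and 30.9% higher in both batches, and 3.23% and 5.04% at that p. These counts were thus near the background. The median log2 ratio was 0.27, against 0.10 over all genes tested. The output genes Ciart, at 2.59 and 0.487 CPM in inflamed sums against 16.8 and 17.1 CPM in naive sums, and Hlf, at 7.64 and 14.9 CPM against 59.97 and 25.2 CPM, were lower. Ciart was read in 8.58% of kept cells and Hlf in 20.9%. Arntl, which encodes the activator BMAL1, was higher, at 43.5 and 47.8 CPM against 8.81 and 13.7 CPM, and so was the repressor gene Bhlhe41, at 923 and 2014 CPM against 536 and 764 CPM. Rora, which encodes a nuclear receptor that activates Arntl, was lower, at 100.0 and 68.1 CPM against 223 and 249 CPM. The closest relatives, Per2 and Per3, were lower in batch 2 and higher in batch 3.

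Klf9 encodes a Krüppel-like factor that responds to glucocorticoids and thyroid hormone (ENSMUSG00000033863; chromosome 19, 23141226 to 23168134, plus strand). It was the target with the smallest difference, at 80.8 and 81.1 CPM in inflamed sums against 128.2 and 57.1 CPM in naive sums. The inflamed sum was 1.59-fold lower in batch 2 and 1.42-fold higher in batch 3, and the inflamed values lay between the naive ones (fitted log2 ratio -0.08 ± 0.55 SE, n = 2 and 2 sums; edgeR adjusted p = 1). Shares of cells with a read were 73.8% (62.7 to 82.96) and 68.4% (56.7 to 78.6) in inflamed cells and 77.4% (63.8 to 87.7) and 57.6% (44.1 to 70.4) in naive cells. Its relative Klf13 was higher in both batches, at 966 and 1144 CPM in inflamed sums against 398 and 543 CPM in naive sums, and Klf4, an epithelial factor, was lower, at 262 and 259 CPM against 397 and 522 CPM.

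Sgk1 encodes a kinase that carries the response of epithelia to corticosteroids and acts on ion channels and Foxo factors (ENSMUSG00000019970; chromosome 10, 21882184 to 21999903, plus strand). It was the only one of the 7 that was higher in inflamed cells in both batches, at 3176 and 2119 CPM in inflamed sums against 615 and 1542.5 CPM in naive sums. That is 5.17-fold higher in batch 2 and 1.37-fold higher in batch 3 (fitted log2 ratio 1.41 ± 0.59 SE, n = 2 and 2 sums; edgeR adjusted p = 0.602, DESeq2 adjusted p = 0.0769). Reads were found in all or nearly all cells, in 100% and 96.1% of inflamed cells and 100% and 100% of naive cells. The share of cells did differ at a higher cutoff. Cells over 100 CPM numbered 75 of 80 and 65 of 76 among inflamed cells and 32 of 53 and 37 of 59 among naive cells. The median cell had 2025 and 1424 CPM in inflamed batches and 219 and 321 CPM in naive batches, a wider gap than between the sums in batch 3. In naive cells the 5 highest cells gave 50.9% and 44.5% of the reads, against 24.5% and 24.5% in inflamed cells, and single naive cells reached 6436 and 10578 CPM. Per kilobase of exon, Sgk1 stood at 648 and 432 CPM per kb in inflamed sums and 125.4 and 315 CPM per kb in naive sums, while its relative Sgk3 stood at 2.52 and 1.66 CPM per kb in inflamed sums and 0.598 and 1.36 CPM per kb in naive sums.

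The kinase's partners differed in both directions. Nedd4l, a ubiquitin ligase that Sgk1 phosphorylates, had 77.6 and 77.97 CPM in inflamed sums against 0.638 and 6.47 CPM in naive sums. Scnn1g, a subunit of the epithelial sodium channel that the ligase removes from the membrane, had 0.0888 and 0 CPM in inflamed sums against 46.3 and 29.6 CPM in naive sums. Few cells carried Scnn1g, with a read in 8.58% of kept cells. Of the Foxo genes, whose products Sgk1 keeps out of the nucleus, Foxo3 was lower, at 107.2 and 152.5 CPM against 323 and 379 CPM, and Foxo1 was higher, at 367 and 294 CPM against 99.4 and 140.8 CPM. Across the 15 tested genes of this list, Sgk1 among them, 5 were lower and 5 were higher in each batch, 2 each at an unadjusted p under 0.05, with a median log2 ratio of 0.47. The counts by direction were near the background of 28.3% lower and 30.9% higher over all genes tested. At an unadjusted p under 0.05, the shares over all genes tested were 3.23% lower and 5.04% higher.

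**Figure D2:**
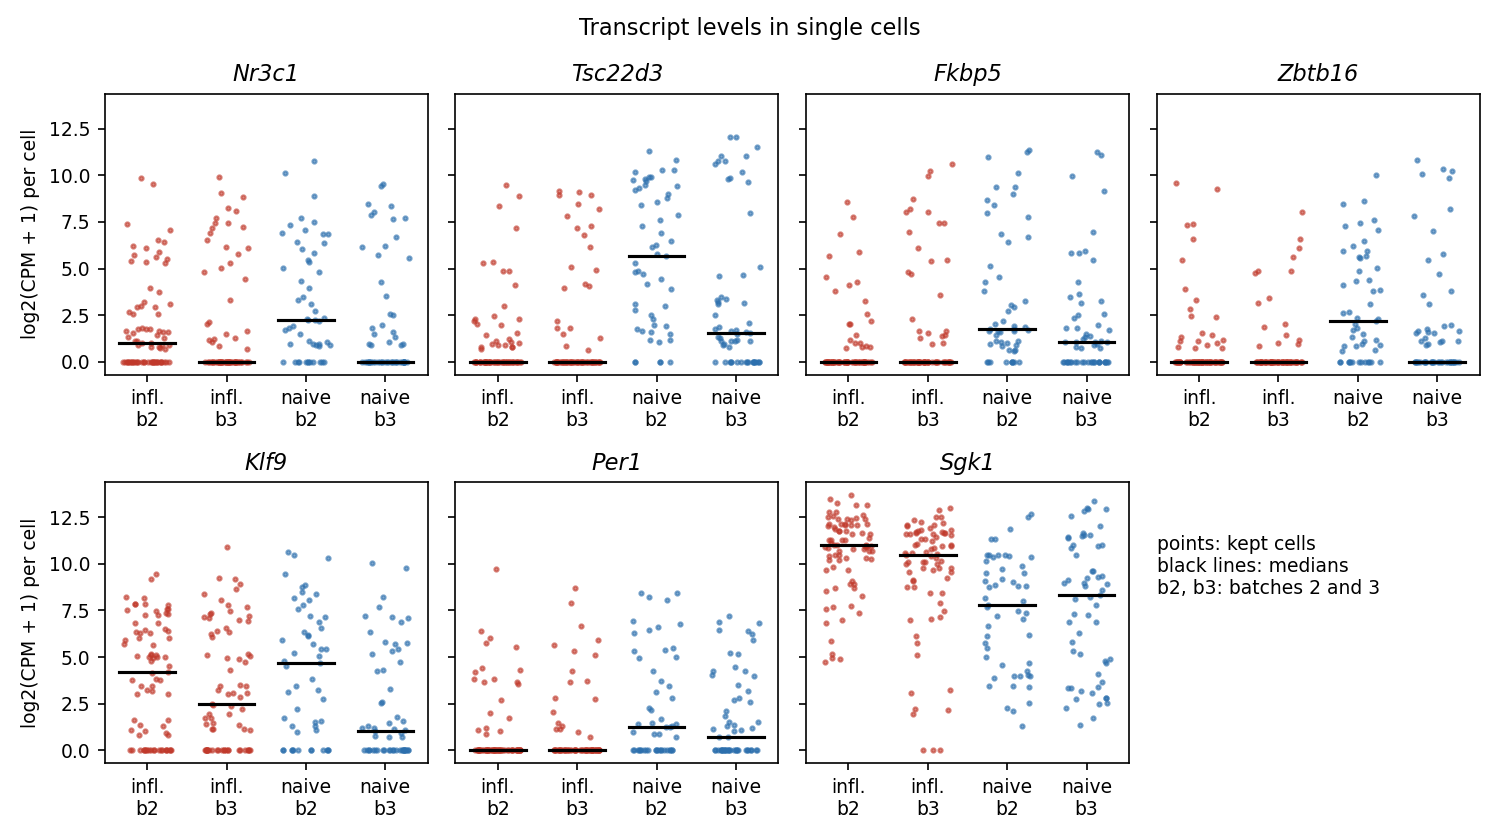
Level of each gene in every kept cell, as log2(CPM + 1), with inflamed batches 2 and 3 left of naive batches 2 and 3 and black lines at the medians. The medians of Tsc22d3, Fkbp5, Zbtb16 and Per1 lie at 0 in both inflamed batches, and the median cell for Sgk1 had 2025 and 1424 CPM in inflamed batches and 219 and 321 CPM in naive batches.

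Cells differed in how many of the targets they held. Sgk1, read in nearly every cell, was left out of this count, a choice made after its values were seen. Of the 5 other targets, the median cell had reads of 2 and 2 in inflamed batches and of 4 and 3 in naive batches. With 1 read taken as enough, at least 3 of the 5 were found in 25 of 80 and 17 of 76 inflamed cells (31.2% and 22.4%), against 47 of 53 and 36 of 59 naive cells (88.7% and 61.02%). The same count was not made at 5 reads, a cutoff that moved 22 of 28 single-gene shares outside their intervals. At most 1 was found in 42.5% and 40.8% of inflamed cells, against 0 of 53 (where 3 cells would be 5.66%) and 6 of 59 (10.2%) naive cells. In cells thinned to 500000 counts, which left out 14 inflamed and 11 naive cells of lower depth, the shares with at least 3 were 22.9% and 18.1% of inflamed cells and 86.96% and 49.1% of naive cells.

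**Figure D3:**
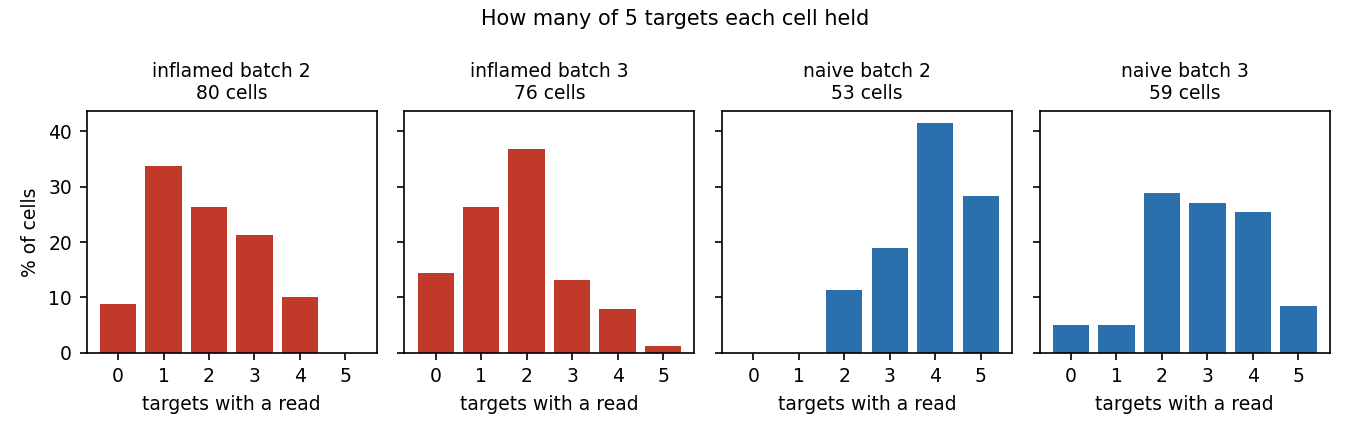
Share of kept cells (vertical axis, %) by the number of the 5 targets Tsc22d3, Fkbp5, Zbtb16, Klf9 and Per1 with at least 1 read (horizontal axis), in inflamed batches 2 and 3 and naive batches 2 and 3. The median was 2 targets in both inflamed batches and 4 and 3 targets in the naive batches.

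The share of cells with at least 5 reads was lower in inflamed cells in both batches for Tsc22d3, Fkbp5, Zbtb16 and Per1, although the gap for Fkbp5 in batch 3 was narrow, at 22.4% of inflamed and 23.7% of naive cells. Naive cells of batch 2, with the highest shares of cells with a read for 6 of the 7 genes, also had the highest median number of detected genes, and the part of this in the shares was not tested beyond the thinning.

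**Figure D4:**
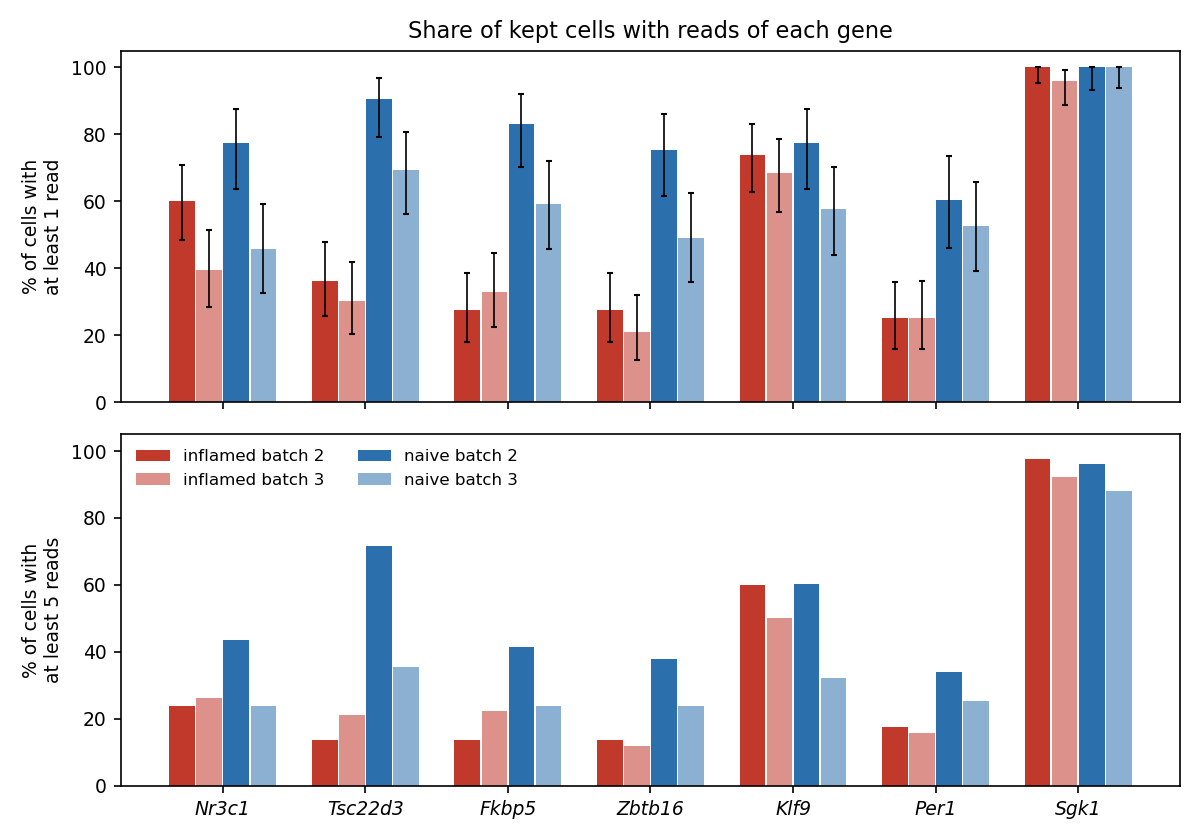
Share of kept cells with at least 1 read (upper panel, bars with 95% Clopper-Pearson intervals) and with at least 5 reads (lower panel) of each gene, by condition and batch. For Tsc22d3 the bars are at 36.2% and 30.3% in inflamed cells against 90.6% and 69.5% in naive cells at 1 read, and 13.8% and 21.1% against 71.7% and 35.6% at 5 reads.

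Within a group of cells, the 7 genes varied largely apart from each other. After subtraction of each group's mean, Pearson's r of log2(CPM + 1) over the 268 kept cells ranged from -0.18 (Tsc22d3 with Sgk1) to 0.21 (Tsc22d3 with Fkbp5) among the 21 pairs. For comparison, r with the number of detected genes per cell, which all genes of a cell share, ranged from 0.02 for Per1 to 0.21 for Tsc22d3. These values are weak, come from sparse counts and are given as a description, with no test. Cells with a read of Nr3c1 did not hold the targets more often in a uniform way: Tsc22d3 was read in 33.3% of inflamed batch 2 cells with and 40.6% of those without a receptor read, and in 74.1% and 65.6% of such naive batch 3 cells.

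The genes closest to a member over the 268 cells, of 6974 found in at least 20% of cells, included copies of the members themselves. For Tsc22d3 the nearest was the processed pseudogene Gm8812 (r = 0.78), whose 412 bases align to Tsc22d3 at 89.8% identity, and for Sgk1 it was the processed pseudogene Gm11025 (r = 0.80), which aligns at 87.01% identity. Gm8812 held 2.59% and 1.53% as many counts as Tsc22d3 in inflamed sums and 2.12% and 2.50% in naive sums, and Gm11025 held 0.548% to 0.776% as many as Sgk1. How reads matching several places were counted was not stated in any source used. Counted together with its pseudogene, Tsc22d3 had a log2 ratio of -3.26 and Sgk1 of 1.42, an alternative chosen after seeing the data. The nearest gene had r between 0.25 and 0.31 for a further 4, namely Taf1 for Nr3c1 (0.25), Alyref for Fkbp5 (0.26), Itfg2 for Zbtb16 (0.31) and Kcnk1 for Klf9 (0.28).

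Chaperones and co-chaperones of the receptor were lower in most cases. Of 15 tested, Fkbp5 among them, 11 were lower in each batch and 0 were higher, against 28.3% of all genes tested that were lower in both. There were 5 of 15 lower by 2-fold or more in both batches and 4 at an unadjusted p under 0.05, against 10.6% and 3.23% of all genes tested. Those lower by 2-fold were Hspa1a, Hspa1b, Dnajb1, Hsp90aa1 and Hspa8. The median log2 ratio was -0.81. Differences were smaller for Hsp90ab1, at 3705 and 3616 CPM in inflamed sums against 4252 and 5457 CPM in naive sums. Ptges3 had 902 and 1076 CPM against 1038 and 1599 CPM. Stip1, St13, Cdc37 and Ppid differed in direction between the batches. Dnajb1, the Hsp40 co-chaperone, had 456 and 864 CPM in inflamed sums against 2646 and 4496 CPM in naive sums. The inducible Hsp70 gene Hspa1a had 29.1 and 17.1 CPM against 175.3 and 372 CPM, and its near-identical copy Hspa1b 138.4 and 30.4 CPM against 307 and 939 CPM, so reads of this pair are uncertain in part. Of 13 tested coregulators of the receptor, 4 were lower in each batch and 1 was higher (median log2 ratio -0.26). Over all genes tested, 28.3% were lower and 30.9% higher in both batches, so the lower count was near the background. The coactivator gene Med1 was the higher one, at 631 and 643 CPM in inflamed sums against 300 and 355 CPM in naive sums, and Crebbp, another coactivator, was lower, at 811 and 762 CPM against 1120 and 1164 CPM.

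Further glucocorticoid targets, a list of 40 genes of which 34 were measured, went both ways. There were 15 lower and 7 higher in each batch, against 28.3% and 30.9% of all genes tested. By 2-fold or more, 6 were lower in both batches (17.6%, against 10.6% of all genes tested). Unadjusted p was below 0.05 for 6 lower and 2 higher genes, against 3.23% and 5.04% of all genes tested. The median log2 ratio was -0.40 (-0.52 in batch 2 and -0.05 in batch 3, against 0.05 and 0.06 over all genes tested). Pik3r1, a regulatory subunit of PI3 kinase, had 33.1 and 103.3 CPM in inflamed sums against 209 and 408 CPM in naive sums. Zfp36, an RNA-binding protein that destabilises cytokine transcripts, had 269 and 573 CPM against 1363 and 1645 CPM. Tgfbr3, a coreceptor of TGF-beta, had 176.4 and 181.4 CPM against 475 and 781 CPM. By contrast, Anxa1, an anti-inflammatory phospholipid-binding protein, had 4560 and 2598 CPM in inflamed sums against 398 and 334 CPM in naive sums, with a fitted log2 ratio of 3.24 ± 0.30 (SE, n = 2 and 2 sums; edgeR adjusted p = 0.568). Some widely used markers of the receptor's activity, named after their values were seen, had fitted log2 ratios of -0.21 (Dusp1), 0.08 (Nfkbia) and -0.42 (Mt2). Dusp1, a phosphatase, had 295 and 327 CPM in inflamed sums against 280 and 463 CPM in naive sums, Nfkbia, the NF-kB inhibitor, 1106 and 1823 CPM against 969 and 1861 CPM, and the metallothionein gene Mt2 718 and 425 CPM against 779 and 705 CPM.

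Enzymes that make or break active hormone were sparse. Of 8 listed genes of steroid metabolism and export, 6 were measured. H6pd, which supplies cofactor to the enzyme that regenerates corticosterone, had 17.01 and 10.5 CPM in inflamed sums against 2.14 and 0.0421 CPM in naive sums. Only 6.72% of kept cells had a read of H6pd, and naive batch 3 held 2 counts. Srd5a1, a steroid 5-alpha reductase, had 34.8 and 13.1 CPM against 89.5 and 15.7 CPM. Of 26 tested androgen targets outside the 7 genes, 9 were lower in each batch and 8 were higher, with a median log2 ratio of -0.11. These counts by direction were near the background of 28.3% lower and 30.9% higher in both batches over all genes tested. By 2-fold or more, 5 were lower in both batches (19.2%, against 10.6% of all genes tested). In the other direction, 1 was higher by 2-fold or more, against 2146 of all 14713 genes tested. Unadjusted p was below 0.05 for 1 lower and 0 higher genes, against 3.23% and 5.04% of all genes tested. Odc1, an enzyme of polyamine synthesis, had 40.96 and 29.7 CPM in inflamed sums against 118.98 and 130.01 CPM in naive sums, and the protease gene Tmprss2 had 77.8 and 60.8 CPM against 1.58 and 48.8 CPM.

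Immediate early and dissociation genes were mostly lower in inflamed cells, as were Tsc22d3, Per1 and most chaperones, and their part in those differences was not tested. Of 28 tested, 24 were lower in each batch and 2 were higher, against 28.3% and 30.9% of all genes. By 2-fold or more, 19 were lower (67.9%, against 10.6% of all genes), and the median log2 ratio was -1.85. Their summed level was 12360 and 14887 CPM in inflamed sums against 37716 and 49917 CPM in naive sums. This list shares Zfp36, Dusp1 and Rhob with the glucocorticoid targets, and Hspa1a, Hspa1b and Dnajb1 with the chaperones.

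**Figure D5:**
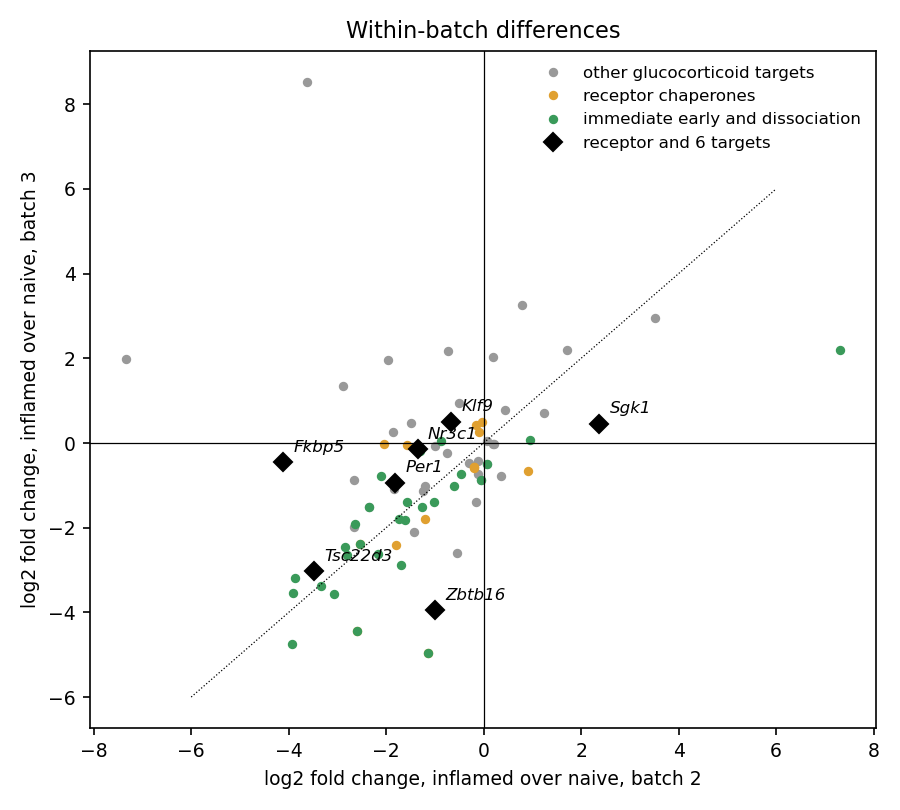
Log2 fold change, inflamed over naive, within batch 2 (horizontal) and batch 3 (vertical), for the receptor and 6 targets (black diamonds) and for other glucocorticoid targets, receptor chaperones and immediate early genes (points; the dotted line marks equal values). Tsc22d3, at -3.48 and -3.03, lies near the line, Fkbp5, at -4.12 and -0.45, and Zbtb16, at -1.004 and -3.94, lie far from it, and Sgk1 is the diamond with both values above 0.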

How the data were processed

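Raw read counts per gene and cell were deposited by the authors in 1 table per batch. TopHat2, HTSeq, R 3.4.1, Seurat 1.4 and the build GRCm38.p6 are named, without roles, per the submitters' processing notes. No row named no gene, and no column was left unused. Symbols and exon lengths came from GENCODE M21 (GRCm38), and 48058 of 48440 identifiers had a symbol. Of 282 cells, 14 were left out (under 1000 detected genes or 50000 counts). No doublet caller was run.

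Counts of kept cells were summed by condition and batch and tested with edgeR 4.0.16 in R 4.3.3 (quasi-likelihood F test, TMM, filterByExpr, terms for batch and condition, residual degrees of freedom 1 and prior ones 2.66, Benjamini-Hochberg threshold 0.05). Fold changes are inflamed over naive. Each SE was derived from the test, as the absolute log2 ratio divided by the square root of its F value. CPM are counts per 1000000 of the TMM-corrected library, and within-batch folds use log CPM with a prior count of 2. DESeq2 1.42.0 was an alternative. On counts simulated from the dispersions of this fit, the share of false calls was above the threshold. An edgeR call here can therefore not be taken to hold its nominal error rate, although the real sums may vary otherwise than the simulated ones. The labels name the batch, which pairs the sums, although their batch deviations had r = -0.011 across 14713 genes. Shares have exact Clopper-Pearson 95% intervals.

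The members and gene lists were chosen with earlier results of these data known. Named genes outside the members were up to 3 per list and direction with the largest fitted difference, the same sign in both batches and at least 10 CPM in both sums of a condition. Tsc22d4, Per2, Per3, Nr3c2, Pgr, Sgk3, Dusp1, Nfkbia, Mt2 and the cell type markers fall outside that rule and were named after their values were seen. The same holds for the chaperone genes Hsp90aa1, Hsp90ab1, Hspa8, Ptges3, Stip1, St13, Cdc37 and Ppid. Lists received no test. Some genes that this rule selects are not reported here. Expression was compared between genes only per kilobase of exon. Counts come with no strand information.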

Additional observations from a re-analysis of the deposited data

How the results depend on the processing

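edgeR called 0 genes under every setting, namely RLE or upper-quartile scaling, no filter on low genes, genes with a read in 20% of cells (lowest adjusted p = 0.0887), all deposited cells, thinned cells, and the paired design dropped (no replicate block, lowest adjusted p = 0.297). Leaving out 1 sum at a time, without the batch term, also gave 0 higher and 0 lower; the lone sum of a condition is then assumed to vary like those of the other. Of 14713 genes, DESeq2 called 927 higher and 534 lower, with Tsc22d3, Fkbp5 and Zbtb16 among the lower ones. It did not call Nr3c1, Per1, Klf9 or Sgk1 (DESeq2 adjusted p = 0.619, 0.467, 0.974 and 0.0769). The cause of the gap between the tools was not tested.

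All of the 7 genes but Klf9 kept their direction under every alternative, within-batch values included. Leaving those values aside, log2 ratios ranged from -3.63 to -2.91 for Tsc22d3, -1.08 to -0.42 for Nr3c1, -3.68 to -1.08 for Fkbp5, -3.47 to -1.61 for Zbtb16, -2.03 to -0.68 for Per1 and 0.77 to 2.13 for Sgk1. Except for one end of Tsc22d3, these ends came from leaving out a single sum: Nr3c1 stood at -0.42 without naive batch 2, Per1 at -0.68 without naive batch 2 and -2.03 without naive batch 3, Fkbp5 stood at -1.08 without inflamed batch 2 and -3.68 without inflamed batch 3, Zbtb16 at -3.47 without inflamed batch 2 and -1.61 without naive batch 3, and Sgk1 at 0.77 without naive batch 2 and 2.13 without naive batch 3. Klf9 changed sign, to 0.031 without the top cell of each sum and to 0.51 within batch 3, and ranged from -0.64 to 0.50 when 1 sum was left out. Thinning moved 3 of 28 shares of cells outside their interval, and requiring 5 reads moved 22 of 28. Shares that rest on 1 to 4 reads per cell thus depended most on the cutoff, and the part of depth in them was not tested beyond the thinning.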

Other observations

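Mir1192, an annotated microRNA gene inside an intron of Klf9 on the same strand, held 2152 counts over the kept cells, and the exons of the 7 genes overlapped no exon of another annotated gene.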
